A study of Mus musculus with 2 samples.

Results

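The genes described here belong to the NRF2 antioxidant response and to iron storage. They are 10 genes chosen by symbol: NFE2L2, KEAP1, GCLC, GCLM, TXNRD1, SRXN1, NQO1, HMOX1, FTH1 and FTL. The table they come from holds 57011 distinct labels, of which 13811 reached at least 1 FPKM in at least 1 library. All 10 genes reached that level. Of these, 9 had a row of their own, and SRXN1 appeared only in a locus merged with SCRT2, a neuronal transcription factor gene, and a clone name, so the share of SRXN1 in that value cannot be told apart.

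RNA was sequenced from 2 patient-derived xenografts, human tumors that are passed on as grafts in mice without a full immune system. The hosts were athymic nude mice of the Foxn1nu strain, and the tumor type was gastroenteropancreatic neuroendocrine in both groups. The primary group was 1 library from a primary tumor in the flank, and the metastatic group was 1 library from a metastatic tumor in the peritoneal cavity, each from tissue dissociated to a cell pellet and with no treatment given. Tumor origin and graft site differed together and cannot be told apart, the sample titles share a code but no label states whether 1 patient gave both tumors, and with 1 library per group no difference has a replicate check and no test was possible.

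NRF2, encoded by NFE2L2, is a transcription factor that switches on genes against oxidants and reactive chemicals. In unstressed cells KEAP1 holds it and hands it to a CUL3 ubiquitin ligase for degradation; oxidants modify KEAP1, NRF2 accumulates, and it pairs with small MAF proteins on antioxidant response elements. Its known targets make glutathione, keep thioredoxin and peroxiredoxin reduced, detoxify quinones, break down haem and build ferritin, the protein shell that stores iron. NRF2 activity is set largely at the protein level, which RNA values do not show, and ferritin output is also set at translation by iron regulatory proteins.

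Values are FPKM, fragments per kilobase of transcript scaled to a total of mapped fragments, a level per length. They summed to 784987 for the primary library and 885319 for the metastatic one, and the read depth behind them is unknown. Differences are given as the log2 of metastatic over primary after adding 1 FPKM to each value, which understates the change of low genes. A gene was counted as higher or lower at 2-fold on that scale. Over all 13811 entries the median log2 ratio was 0.03. It was -0.12 once both libraries were brought to the same sum, and 36.4% of the entries past 2-fold were then higher in the metastatic library in place of 49.6%. Some zeros may be failed estimates: LDHA, RPL7A and RPS25, which nearly all cells use, were listed at 0 in both libraries.

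Most of the antioxidant genes stood higher in the metastatic library, by amounts mostly under 2-fold. Of the 10 genes, 8 had a log2 ratio above 0 and 2, NFE2L2 and FTH1, below 0; GCLC turned below 0 under 2 of 3 rescalings, which left 7 above. In the values as deposited, 51.8% of all entries were above 0. GCLM and the SRXN1 locus were the 2 genes at least 2-fold higher, against 9.22% of all entries, and 0 of 10 were at least 2-fold lower, against 9.35%. Only GCLM remained of the 2 when the merged SRXN1 locus was left out. At a 1.5-fold rule 6 of 10 were higher, against 21.8% of entries, and 0 lower, against 20%. The median log2 ratio was 0.65, and 0.63 over the 9 genes with a row of their own. All 10 genes reached at least 10 FPKM in a library. Among the 7686 entries at that level, the median was 0.14 and 57.5% were above 0. Of these entries 9.91% were past 2-fold on the higher side and 7.92% on the lower side.

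**Figure D1:**
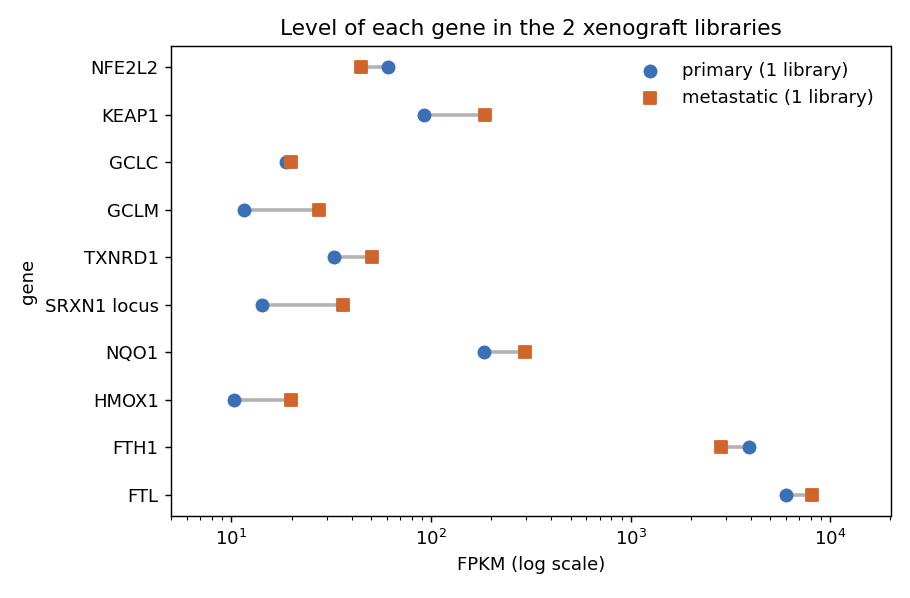
FPKM (log scale) of each of the 10 genes in the primary library (blue circles) and the metastatic library (orange squares), joined by a line. FTL and FTH1 lie far to the right of the other genes in both libraries, and NFE2L2 and FTH1 are the 2 genes whose metastatic value lies to the left of the primary one.

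The sensor and the factor lay on opposite sides. NFE2L2 stood at 60.9 FPKM in the primary and 44.8 FPKM in the metastatic library, a log2 ratio of -0.43, within 2-fold. KEAP1, the adaptor that presents NRF2 for degradation, stood at 92.7 and 186 FPKM, so the metastatic library held the higher value. Its log2 ratio of 0.9998 lay just below the 2-fold limit with the added FPKM, and without any pseudocount the ratio was 2.01. Within the primary library KEAP1 was 1.52 times the level of NFE2L2, and within the metastatic library 4.16 times. Such a ratio inside a library does not depend on how the libraries were scaled, and it changed 2.73-fold. The values describe RNA per length and not the protein ratio.

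Glutathione is made in 2 steps, and the first is run by glutamate-cysteine ligase, which has a catalytic subunit encoded by GCLC and a modifier subunit encoded by GCLM. Their values differed between the libraries by unequal amounts. GCLC stood at 18.8 FPKM in the primary and 19.9 FPKM in the metastatic library, a log2 ratio of 0.08. This sign turned to -0.09 when the libraries were rescaled to the same sum and to -0.01 when rescaled by the 75th percentile, so no direction is given for GCLC. GCLM stood at 11.5 and 27.5 FPKM, a log2 ratio of 1.19 that exceeded those of 94.1% of all entries. The modifier was thus below the catalytic subunit in the primary library, at 0.614 times its level, and above it in the metastatic library, at 1.38 times, a 2.26-fold change of the ratio. Length was taken as the median over all protein-coding mouse transcripts of the same symbol. Short isoforms can pull this median below the length of the main transcript. By this measure GCLM was among the shortest 25%, at 1002 bases, and GCLC was longer, at 3423 bases. Entries in that shortest 25% had a median log2 ratio of 0.20, against -0.17 in the longest 25%. The part of transcript length in this pair was not tested.

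**Figure D2:**
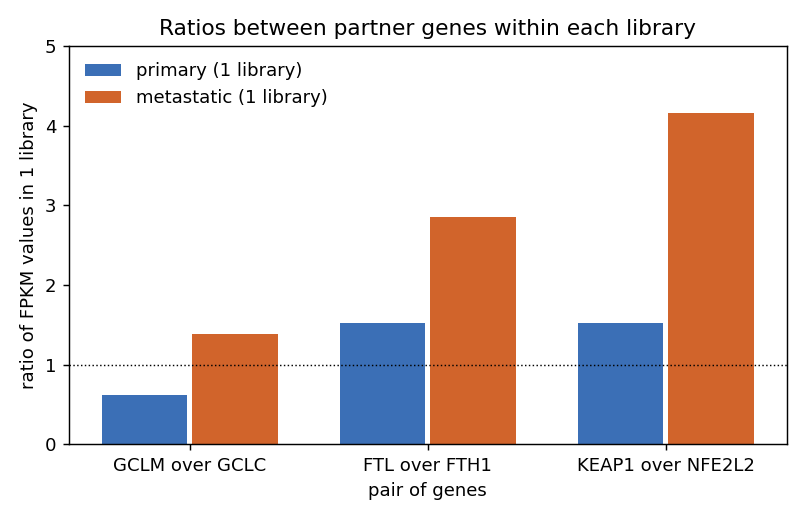
Ratio of the FPKM values of 2 partner genes inside each library, for GCLM over GCLC, FTL over FTH1 and KEAP1 over NFE2L2, with primary in blue, metastatic in orange and a dotted line at equal levels. With the genes in this order the ratio was higher in the metastatic library for each of the 3 pairs, and the reverse order would make it lower. GCLM over GCLC crossed the line, from 0.614 to 1.38. Not drawn are HMOX1 over NQO1 and TXNRD1 over NQO1, whose ratios changed 1.21-fold and 0.979-fold.

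TXNRD1 and SRXN1 encode enzymes that act on thiols. TXNRD1, the cytosolic thioredoxin reductase that passes electrons from NADPH to thioredoxin, stood at 32.6 FPKM in the primary and 50.8 FPKM in the metastatic library, a log2 ratio of 0.63, within 2-fold. The locus that holds SRXN1, the sulfiredoxin that repairs over-oxidised peroxiredoxins, stood at 14.2 and 36.1 FPKM. Its log2 ratio of 1.29 was the highest of the 10 genes, above 95.3% of all entries, but it is shared with SCRT2.

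NQO1 and HMOX1 encode enzymes that act on quinones and on haem. NQO1, a reductase widely used as a readout of NRF2 activity, stood at 185 FPKM in the primary and 294 FPKM in the metastatic library, a log2 ratio of 0.67. Per length it was the most abundant of the 10 after the ferritin chains in both libraries. HMOX1, the inducible haem oxygenase, which releases iron from haem and also answers to other stress signals, stood at 10.3 and 19.9 FPKM, a log2 ratio of 0.88, also under 2-fold. It was the lowest of the 10 genes in the primary library, and in the metastatic library it lay beside GCLC, at a nearly equal value. The levels of TXNRD1 and NQO1 kept nearly the same proportion, 0.176 in the primary library and 0.173 in the metastatic one.

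**Figure D3:**
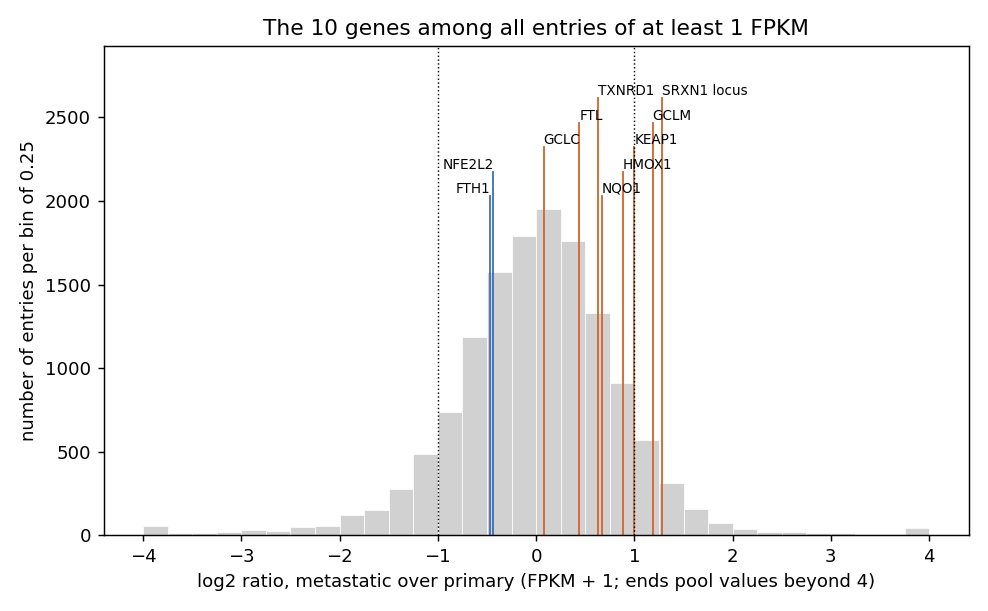
Histogram of the log2 ratio (metastatic over primary, FPKM + 1) of all 13811 entries of at least 1 FPKM in a library, in bins of 0.25 with the end bins pooling values beyond 4, and a vertical line for each of the 10 genes (orange above 0, blue below). GCLM and the SRXN1 locus lie past the dotted 2-fold line and KEAP1 lies on it.

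The ferritin chains lay on opposite sides. Ferritin is a shell of heavy chains, from FTH1, which oxidise iron, and light chains, from FTL, which help it to form a mineral core. FTH1 stood at 3929 FPKM in the primary and 2838 FPKM in the metastatic library, a log2 ratio of -0.47. FTL stood at 5971 and 8100 FPKM, a log2 ratio of 0.44. Both differences were within 2-fold, and FTL ranked 6th of all labels by FPKM in the primary library and 4th in the metastatic one. The light chain was 1.52 times the heavy chain in the primary library and 2.85 times in the metastatic one, a 1.88-fold change. The 2 chains together came to 9900 and 10938 FPKM, which was 1.26% and 1.24% of each library's sum, so the summed share was nearly equal while FTH1 made up 39.7% of it in the primary library and 25.9% in the metastatic one.

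Ferritin genes have many processed copies in the human genome, and reads can be split between them. The table lists 24 copies of FTH1 and 16 of FTL. Together the FTH1 copies came to 1.75% of the parent's FPKM in the primary library and 2.63% in the metastatic one, and those of FTL to 0.693% and 0.802%. The largest were FTH1P8, at 35.4 and 26.2 FPKM, and FTLP3, at 35.8 and 46.2 FPKM, both chosen for their level. Summed, the FTH1 copies stood at 68.8 and 74.6 FPKM, with the higher value in the other library than FTH1, and the FTL copies at 41.4 and 65.0 FPKM, on the same side as FTL. Adding the copies to the parents gave log2 ratios of -0.46 for FTH1 and 0.44 for FTL.

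**Figure D4:**
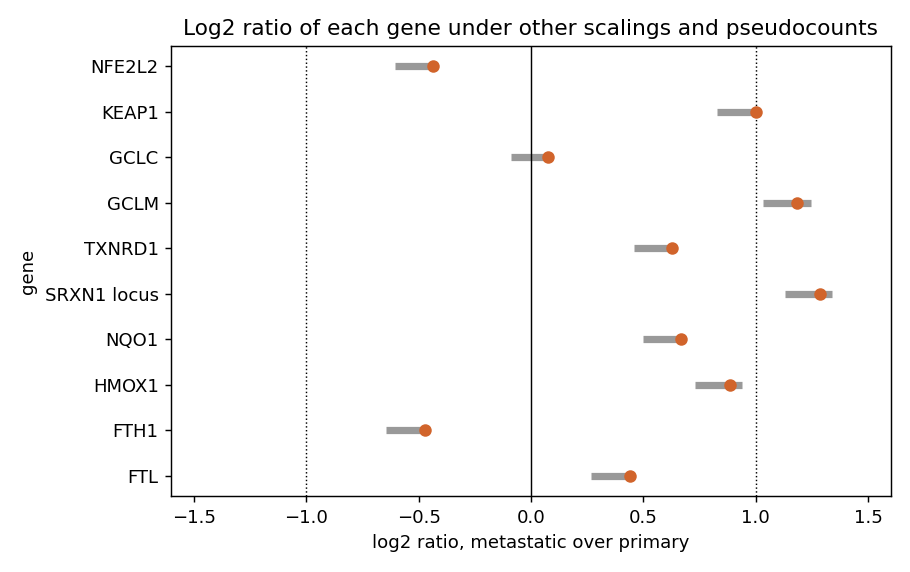
Log2 ratio (metastatic over primary) of each of the 10 genes as reported (orange points) and its range over the other pseudocounts, scalings and row rules (grey bars), with dotted lines at 2-fold. GCLC is the gene whose bar spans 0, from -0.09 to 0.08, and the other 9 bars stay on one side.

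Lists of other genes of the pathway held 127 genes in all, of which 101 had an expressed row of their own or one merged only with clone names. Of these, 9 were higher by 2-fold or more and 8 were lower by as much, with a median log2 ratio of 0.29. In all 67 of the 101 were above 0, against 51.8% of all entries. The median of the pathway genes was 0.12 once both libraries were brought to the same sum, with 9 higher and 10 lower. On that scale 7.24% of all entries were higher and 12.7% lower. The counts in the deposited values are close to the 9.22% and 9.35% of all entries past 2-fold. The lists overlap, and none was tested.

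Partners and competitors of NRF2 showed no common direction, with a median log2 ratio of -0.00479. Of 10 expressed genes 0 were higher by 2-fold or more and 1 was lower, against 9.22% and 9.35% of all entries. CUL3, the scaffold of the ligase that KEAP1 recruits, stood at 80.8 FPKM in the primary and 103 FPKM in the metastatic library, and its partner RBX1 at 72.6 and 111 FPKM. GSK3B, a kinase of a second route of NRF2 degradation, stood at 33.6 and 49.2 FPKM. These 3 genes were within 2-fold. BACH1, a repressor that competes for the same DNA elements, stood at 13.0 and 8.55 FPKM, and the small MAF gene MAFK at 32.0 and 18.2 FPKM. MAFG shared a merged locus with SIRT7, which stood at 12.0 and 23.0 FPKM. The related factor gene NFE2L3 was the 1 member past 2-fold, at 49.6 FPKM in the primary and 16.1 FPKM in the metastatic library.

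Other known NRF2 targets were mixed. Of 22 expressed genes, 2 were higher by 2-fold or more and 1 was lower, against 9.22% and 9.35% of all entries. In all 14 were above 0, against 51.8% of all entries, and the median log2 ratio was 0.32. With a filter of 5 or 10 FPKM 1 was higher, against 9.49% and 9.91% of all entries. TXN, encoding thioredoxin, stood at 289 FPKM in the primary and 756 FPKM in the metastatic library, and PRDX1, a peroxiredoxin, at 647 and 1246 FPKM, a log2 ratio of 0.94. SLC7A11, the cystine importer that feeds glutathione synthesis, was low, at 0.303 and 2.29 FPKM, and reached 1 FPKM in the metastatic library alone. The transporter ABCC2 stood at 28.8 and 55.6 FPKM. AKR1C1, an aldo-keto reductase often used as an NRF2 target in human cells, went the other way, at 50.2 and 20.6 FPKM. It has near-identical copies, so its single value is uncertain.

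Glutathione genes included 5 of 26 that were higher by 2-fold or more and 0 that were lower, against 9.22% and 9.35% of all entries. Their median log2 ratio was 0.41, and 22 were above 0, against 51.8% of all entries. With a filter of 10 FPKM 2 were higher, against 9.91% of all entries. When the libraries were rescaled to the same sum or by the 75th percentile 1 was lower, against 12.7% and 10.4%. CHAC1, a stress-induced enzyme that degrades glutathione, stood at 0.429 FPKM in the primary and 9.89 FPKM in the metastatic library, and its relative CHAC2 at 2.59 and 9.75 FPKM. These 2 genes break glutathione down and do not make it. GLRX2, a mitochondrial glutaredoxin, stood at 28.6 and 72.3 FPKM, and the glutathione transferase GSTA1, which has near-identical copies, at 3.03 and 14.8 FPKM. SLC7A11 was the fifth. CHAC1 and SLC7A11 reached 1 FPKM in the metastatic library alone. GPX4, which reduces lipid peroxides with glutathione, stood at 198 and 308 FPKM, within 2-fold. Of these 26 genes, 18 were among the shortest 25% by the median over mouse transcripts of the same symbol. That median can fall below the length of the main transcript. Entries in that shortest 25% had a median log2 ratio of 0.20, against -0.17 in the longest 25%. The part of transcript length in the list's values was not tested.

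Thioredoxin and peroxiredoxin genes included 4 of 15 that were higher by 2-fold or more and 2 that were lower, against 9.22% and 9.35% of all entries, with a median log2 ratio of 0.33. With a filter of 10 FPKM 1 was lower, against 7.92% of all entries. When the libraries were rescaled to the same sum or by the 75th percentile 3 were higher, against 7.24% and 7.62%. Besides TXN, PRDX4, a peroxiredoxin of the endoplasmic reticulum, stood at 203 FPKM in the primary and 507 FPKM in the metastatic library, and TXNL1 at 83.9 and 197 FPKM. PRDX2 was the fourth, at 753 and 1582 FPKM. TXNIP, which binds and inhibits thioredoxin and also responds to glucose, stood at 81.1 and 11.2 FPKM, a log2 ratio of -2.75. SESN3, a sestrin, stood at 8.15 and 2.99 FPKM. Inhibitor and enzyme thus lay on opposite sides, with TXN higher and TXNIP lower in the metastatic library.

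Among enzymes that remove superoxide and peroxide, SOD1 stood at 331 FPKM in the primary and 614 FPKM in the metastatic library, within 2-fold, and its copper chaperone CCS at 87.3 and 56.6 FPKM. SOD2, the mitochondrial superoxide dismutase, stood at 198 and 219 FPKM. CAT, encoding catalase, was the 1 of 4 expressed genes past 2-fold, at 67.7 and 33.0 FPKM. Of all entries 9.22% were past 2-fold on the higher side and 9.35% on the lower side.

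Iron handling genes had a median log2 ratio of -0.11 over 17 genes, with 0 higher and 2 lower, against 9.22% and 9.35% of all entries. With a filter of 5 or 10 FPKM only 1 was lower, against 8.89% and 7.92% of all entries. SLC40A1, encoding the iron exporter ferroportin and a known NRF2 target, stood at 28.0 FPKM in the primary and 8.81 FPKM in the metastatic library. It lay on the opposite side from FTL and HMOX1 and on the same side as FTH1. CYBRD1, a ferric reductase, was low, at 1.14 and 0.0221 FPKM, and reached 1 FPKM in the primary library alone. TFRC, the transferrin receptor for iron uptake, stood at 33.7 and 41.3 FPKM, and NCOA4, the receptor that delivers ferritin to lysosomes, at 78.4 and 72.5 FPKM. IREB2, an iron regulatory protein that blocks ferritin translation when iron is scarce, stood at 51.8 and 32.4 FPKM. The gene of the other iron regulatory protein, ACO1, lay on the opposite side, at 38.6 and 45.5 FPKM. SLC11A2, an iron importer, stood at 23.3 and 14.4 FPKM, and HFE at 6.50 and 3.30 FPKM. TFRC, NCOA4, IREB2, ACO1, SLC11A2 and HFE were within 2-fold. HAMP, the hepcidin gene, stood at 0.0174 and 1.03 FPKM, under the 2-fold limit with 1 FPKM added and past it with a pseudocount of 0.5 FPKM.

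Haem genes had a median log2 ratio of 0.38 over 12 genes, with 0 higher and 1 lower, against 9.22% and 9.35% of all entries. When the libraries were rescaled to the same sum 2 were lower, against 12.7% of all entries. ALAS1, the first enzyme of haem synthesis, stood at 34.7 FPKM in the primary and 63.8 FPKM in the metastatic library, ALAD, the next enzyme, at 19.1 and 9.79 FPKM, and UROD, a later one, at 85.7 and 162 FPKM. POR, which passes electrons to haem oxygenase and cytochromes P450, stood at 59.7 and 108 FPKM. These genes were within 2-fold. BLVRB, a biliverdin reductase downstream of haem oxygenase, stood at 52.6 and 17.4 FPKM, and so on the opposite side from HMOX1. The other biliverdin reductase gene, BLVRA, lay on the same side as HMOX1, at 6.39 and 12.0 FPKM, within 2-fold. HMOX2, the constitutive haem oxygenase, was listed at 0 in both libraries.

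**Figure D5:**
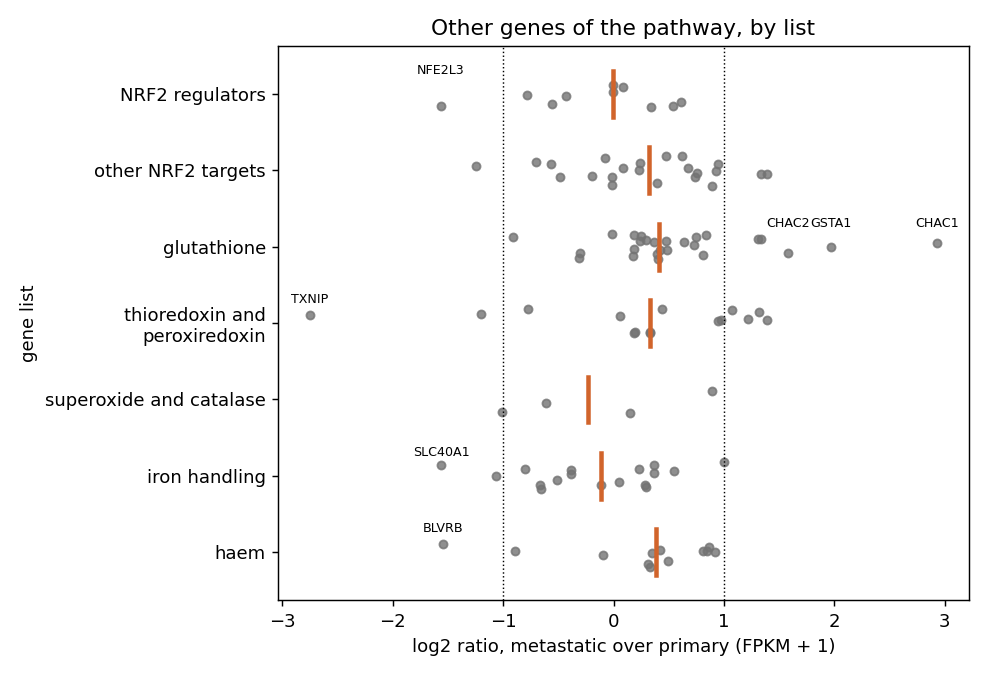
Log2 ratio (metastatic over primary, FPKM + 1) of the expressed genes of each of the 7 pathway lists, 1 grey point per gene with the vertical position spread for legibility, an orange bar at the list median and dotted lines at 2-fold. The points of each list lie mostly between the dotted lines, with TXNIP, at -2.75, and CHAC1, at 2.93, the furthest out.

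In bulk samples fewer cells of a type and less RNA per cell cannot be told apart, and several cell types other than tumor cells carry these genes at high levels. Macrophage markers with a row of their own numbered 9. Of these, 2 reached 1 FPKM, and 3, AIF1, MARCO and VSIG4, were listed at 0 in both libraries. A 0 may be a failed estimate here too, above all for AIF1, which like LDHA had several rows. The 9 summed to 5.52 FPKM in the primary and 13.3 FPKM in the metastatic library, mostly lysozyme, LYZ, at 2.72 and 12.0 FPKM. The leukocyte gene PTPRC stood at 0.111 and 0.0403 FPKM. CD163, the receptor by which macrophages take up haemoglobin, shared a merged locus with CD163L1, at 68.3 and 8.19 FPKM, and CD68 only in a locus merged with other genes. Hepatocyte markers, a cell type rich in ferritin and haem enzymes, mostly stood higher in the metastatic library. Of 9 expressed, 6 were at least 2-fold higher and 1 lower, against 9.22% and 9.35% of all entries. Among the 6, APOA1, APOA2 and APOB reached 1 FPKM in the metastatic library alone. The lower one, CPS1, stood at 31.7 and 2.96 FPKM. The 10 with their own row summed to 450 and 1186 FPKM, much of it from FGA, FGB and FGG. Erythroid markers summed to 36.2 and 100 FPKM over 7 genes, nearly all of it HBB, at 33.5 and 96.0 FPKM, while EPB42 was listed at 0 in both. Fibroblast markers summed to 533 and 161 FPKM over 9 genes, most of it COL1A2, at 474 and 149 FPKM. Of 7 expressed markers, 5 were at least 2-fold lower and 1 higher, against 9.35% and 9.22% of all entries. The higher one, DCN, stood at 0.370 and 2.89 FPKM and reached 1 FPKM in the metastatic library alone. Among the 5 lower, FSTL1 reached 1 FPKM in the primary library alone. Endothelial markers summed to 27.1 and 4.80 FPKM over 8 genes, most of it EGFL7, at 19.1 and 1.58 FPKM, and CLDN5, at 5.73 and 1.41 FPKM. Of 3 expressed, these 2 were at least 2-fold lower and 0 were higher, against 9.35% and 9.22% of all entries. PECAM1, CDH5, VWF and TEK were under 1 FPKM in both libraries, VWF and TEK with the higher value in the metastatic one. KDR was listed at 0 in both. The part of these cell types, and of mouse host cells, in the values of the 10 genes was not tested.

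The labelled tumor type was checked against neuroendocrine markers. Of 9 with a row of their own, 6 were expressed. Of these, 1 was at least 2-fold higher and 3 lower in the metastatic library, against 9.22% and 9.35% of all entries. Among the 3, INSM1 and SCG2 were low and reached 1 FPKM in the primary library alone, and PCSK1 stood at 19.9 and 2.74 FPKM. The sums of 255 and 711 FPKM came mostly from UCHL1, at 225 and 705 FPKM. Of the defining markers, CHGA was listed at 0 in both libraries over 2 rows, the same form as the zeros of LDHA, so its level is not known. SYP stood at 1.63 and 1.96 FPKM and INSM1 at 3.54 and 0.271 FPKM. Genes that respond within minutes to handling also differed, with FOS at 490 FPKM in the primary and 16.1 FPKM in the metastatic library and EGR1 at 354 and 31.1 FPKM. The part of handling in HMOX1 and the other stress-responsive genes was not tested.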

How the data were processed

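One table of 62573 rows with an FPKM column per library was deposited by the authors; the unit is named per the file headers. Per the submitters' processing notes, the tools were STAR 2.7.6a, Cufflinks 2.2.1 and bcl2fastq 2.18.0.12 and the build GRCh38, without a stated role; how mouse reads were treated and which annotation was used is not given in the sources used here, and the labels give mouse as the organism. Rows with the same label were summed. A gene was read from its own row, else from a locus merged with clone names, else from a locus shared with another gene; shared loci were kept for the 10 genes and left out of the pathway and marker counts. Values were compared with Python 3.11.15 and pandas 2.3.3 as log2 after adding 1 FPKM, with no test. The arithmetic of ratios, counts and row merging was tested on simulated data without noise. Named pathway genes were the 5 with the largest absolute log2 ratio in each list, plus SLC7A11, GPX4, TFRC, SLC40A1, NCOA4, IREB2, MAFG, BACH1 and CUL3. The 10 genes and the lists were chosen with earlier results of these data known. PRDX2, HMOX2, BLVRA, ACO1, FOS, EGR1 and the genes of the additional observations were named after their values were seen. Alternatives were other pseudocounts, filters, fold rules, scalings and row rules. Human sequences were not used here.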

Additional observations from a re-analysis of the deposited data

How the results depend on the processing

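Both genes past 2-fold, GCLM and the SRXN1 locus, stayed past it under every pseudocount (0.1 and 0.5 FPKM), scaling and row rule tried, at log2 ratios of 1.03 to 1.25 and 1.13 to 1.34. KEAP1 passed the limit with a pseudocount of 0.1 FPKM (1.0068) or 0.5 FPKM (1.0037), by the construction of the scale, and ran down to 0.83 under rescaling. GCLC turned to -0.0891 when rescaled to a sum of 1000000 and to -0.0129 by the 75th percentile. The median of the 10 genes ran from 0.48, rescaled to the same sum, to 0.66. That rescaling gave medians of 0.12 for the pathway genes, 0.14 for the other NRF2 targets, 0.24 for glutathione and -0.28 for iron handling. The number of the 10 genes counted as higher was 0 at a 4-fold rule, 6 at a 1.5-fold rule and 1 without the shared locus, the last chosen after seeing the data. For the 101 pathway genes a 4-fold rule gave 1 higher and 1 lower, and a 1.5-fold rule 29 and 17. Of all 13811 entries 165 (1.19%) were higher and 259 (1.88%) lower at 4-fold, and 3004 (21.8%) and 2767 (20%) at 1.5-fold. With a filter of 10 FPKM, also chosen after seeing the data, the pathway genes, then fewer than 101, gave 6 higher and 6 lower. All 7686 entries at that level gave 762 higher (9.91%) and 609 lower (7.92%). A filter of 5 FPKM gave 917 higher (9.49%) and 859 lower (8.89%) entries. No paired analysis was possible because each group held 1 library. Read depth is unknown, so counting error could not be given.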

Other observations

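Enzymes that supply NADPH, the reductant that glutathione reductase, thioredoxin reductase and NQO1 use, and enzymes that work beside them, were within 2-fold in the 5 genes given here. PGD, an NADPH-making enzyme of the pentose phosphate pathway, stood at 143 FPKM in the primary and 242 FPKM in the metastatic library. TALDO1 and TKT, which recycle the sugars of that pathway, stood at 156 and 250 FPKM and at 298 and 351 FPKM. The malic enzyme gene ME1 stood at 15.7 and 22.2 FPKM, and IDH1 at 119 and 118 FPKM. GSR, glutathione reductase itself, was nearly equal, at 65.8 and 65.0 FPKM.

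The aldo-keto reductases AKR1C2, at 20.5 FPKM in the primary and 13.5 FPKM in the metastatic library, and AKR1C3, at 295 and 210 FPKM, lay on the same side as AKR1C1, all with higher values in the primary library, and have near-identical copies. AKR1B10 stood at 0 and 0.0990 FPKM and GPX2 at 0.132 and 0.117 FPKM, so these known targets were under 1 FPKM in both libraries while NQO1 stood at 185 and 294 FPKM.

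SQSTM1, which encodes a receptor that can sequester KEAP1 and is abundant in most cells, stood at only 1.92 and 1.91 FPKM. Whether this value is a failed estimate, as the zeros of LDHA and HMOX2 can be, was not tested.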
